A study of Homo sapiens with 4 samples.

Results

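The 10 genes described here encode enzymes that oxidise alcohols or interconvert aldehydes, ketones and alcohols: ADH1B and ADH5, ALDH1A1, ALDH1A3, ALDH3A1 and ALDH3A2, and AKR1B1, AKR1C1, AKR1C2 and AKR1C3. They were taken by name from the 63856 genes counted. The set was chosen by the rise of ADH1B from 0 wild-type counts in this same contrast, so the values of the listed genes are given as a description and nothing is read from their calls. RNA-seq of total RNA was compared between wild-type MCF10A cells (2 libraries) and HSF1-pLVX cells (2 libraries). MCF10A is a non-tumorigenic line of human breast epithelium, and HSF1 is the transcription factor that governs the heat shock response. HSF1-pLVX cells carry an HSF1 cDNA delivered stably by lentivirus and were selected with puromycin, whereas wild-type cells were unmodified. Transduction and selection therefore cannot be told apart from raised HSF1, and libraries of cells with the empty vector were not analysed here. Both groups grew in DMEM/F12 with EGF at 20 ng/ml, hydrocortisone at 0.5 µg/ml, insulin at 5 µg/ml, cholera toxin and horse serum at 5%. Whether the HSF1-pLVX cells were a pool or a clone is not given in the sources used here.

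Alcohol dehydrogenases (ADH) oxidise alcohols to aldehydes, and aldehyde dehydrogenases (ALDH) oxidise aldehydes to carboxylic acids, including retinaldehyde to retinoic acid. Aldo-keto reductases (AKR) mostly run the other way, reducing carbonyl groups of sugars, steroids, prostaglandins and lipid aldehydes with NADPH. ALDH activity is widely used to mark stem and progenitor cells in breast epithelium, where ALDH1A1 and ALDH1A3 are the isoforms usually considered.

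Libraries held 18688109 to 24184285 counts. HSF1 itself had 3762 and 3515 counts in wild type and 24664 and 19839 in HSF1-pLVX. The means were 195 ± 7.94 and 991 ± 11.5 CPM (counts scaled to library size, SD, n = 2), a 5.08-fold rise (log2 fold change 2.35, SE 0.0999, adjusted p = 1.14e-10, edgeR quasi-likelihood test with Benjamini-Hochberg adjustment). The count does not separate introduced from endogenous HSF1. Of 15830 genes tested, 65.9% were called at an adjusted p under 0.05, 32.7% higher and 33.2% lower in HSF1-pLVX, so a call alone was the common outcome. Of the 10 genes, 9 passed the filter on low counts, ADH1B through the HSF1-pLVX libraries only, and ALDH1A1 did not pass. In the fit across all genes, 6 of these 9 came out as called higher, 2 lower and 1 (AKR1C1) neither, a count given for completeness only, since ADH1B was chosen for its rise. Without the second HSF1-pLVX library AKR1C2 and AKR1C3 were not called, and without the second wild-type library AKR1C3 was not called and AKR1C1 was. The 2 with a difference of at least 2-fold were ADH1B, higher, and ALDH1A3, lower, against 14.9% of all genes tested called at least 2-fold higher and 14.0% lower. The libraries of the groups did not overlap in any of the 9, which was also so for 83.1% of all genes tested (42.1% higher and 41.0% lower in HSF1-pLVX). The median absolute log2 fold change over all genes tested was 0.58.

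**Figure D1:**
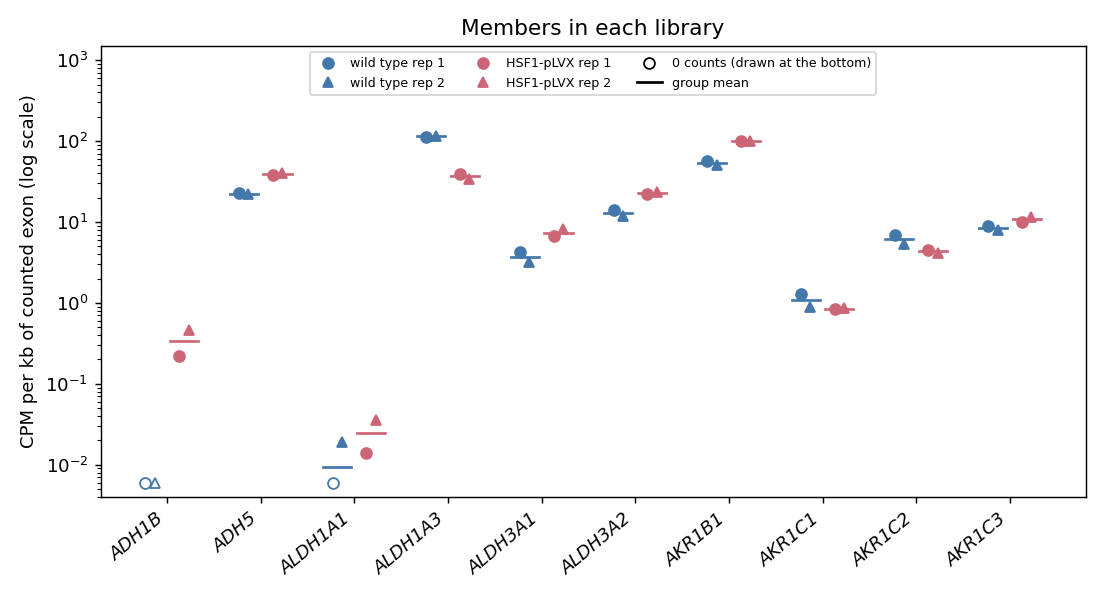
Level of each listed gene in each library, in CPM per kb of counted exon on a log axis, with wild type in blue, HSF1-pLVX in red, circles and triangles for replicates 1 and 2, lines for group means and open symbols for 0 counts. ALDH1A3 is the highest in wild type at 114 CPM per kb and AKR1B1 the highest in HSF1-pLVX at 101.0, while ADH1B has counts only in HSF1-pLVX.

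ADH1B (ENSG00000196616.13, chr4:99304964-99352760, minus strand, hg38), a class I alcohol dehydrogenase best known as an ethanol-oxidising enzyme of liver, had 0 counts in both wild-type libraries, which allows up to 3 counts in each. The HSF1-pLVX libraries held 60 and 99 counts, or 2.39 and 4.98 CPM. ADH1B was thus detected in HSF1-pLVX only, at least 22.9-fold higher against the floor of 3 counts per library. The bound was 14.9-fold with the first HSF1-pLVX library alone and 31.0-fold with the second. ADH1B was scarce even there. At 0.342 ± 0.17 CPM per kb (SD, n = 2) it stood below the other listed genes except ALDH1A1. The counted model includes long retained introns, so its level per kb is a low estimate.

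The 250 bases upstream of the RefSeq start of ADH1B (GRCh38.p14, chr4:99321402-99321651, minus strand) are shown because this gene went from no counts to a measurable level. Capitals mark the only match to 2 motifs, the binding unit of heat shock factors and the core of the antioxidant response element that NRF2 binds.
ADH1B: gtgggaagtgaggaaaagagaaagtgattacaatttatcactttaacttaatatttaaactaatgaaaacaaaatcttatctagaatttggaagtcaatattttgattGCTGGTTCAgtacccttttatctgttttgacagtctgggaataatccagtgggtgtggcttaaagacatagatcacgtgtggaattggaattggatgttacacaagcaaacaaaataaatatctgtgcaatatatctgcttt
The match is to the antioxidant core TGANNNNGC, read on the opposite strand. Searched on both strands, that short motif occurred in 35.2% of 35116 RefSeq promoter windows. The heat shock units searched were the pairs GAANNTTC and TTCNNGAA, in 5.78% and 6.62% of windows, and the longer run of alternating units that contains both pairs, in 0.44%. No heat shock unit occurred in the ADH1B window. For the listed genes, 9 matched the promoter table, with 12 windows, of which 4 held the antioxidant core, 2 held GAANNTTC and 0 held the longer run. Such a match describes letters and is no evidence of binding.

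By distance between log2(CPM + 0.5) values over the 4 libraries, the tested genes most like ADH1B were CA9, ACKR1 and ATP6V1B1. CA9 lay at a distance of 0.532, with 1 and 1 counts in wild type and 89 and 94 in HSF1-pLVX. ACKR1 lay at 0.597, with 0 and 1 against 60 and 63 counts, and ATP6V1B1 at 0.681, with 1 and 2 against 97 and 92. All 3 were near 0 in wild type, which follows from picking them by likeness to ADH1B in these same values. ADH1B is also expressed in liver, fat and connective tissue, so the markers of those cells were read beside it. Of 8 hepatocyte markers, 1 passed the filter (SERPINA1), the sum was 21.3 to 22.3 CPM in wild type and 54.3 to 56.3 in HSF1-pLVX, and ALB, TTR, FGB and CYP3A4 had at most 1 count in any library. At low counts, TF had 1 and 1 in wild type against 4 and 2, and APOB 7 and 13 against 8 and 7. Of 8 adipocyte markers, 2 passed (LPL and PPARG, each called lower), the sum was 13.5 to 16.1 against 7.25 to 9.0 CPM, and ADIPOQ, LEP and FABP4 had at most 2 counts. LPL, with 13 and 11 counts in wild type against 3 and 0, passed through the wild-type libraries only, so nothing is read from its call. PLIN1 had 2 and 2 counts against 8 and 10, and CIDEC 4 and 1 against 2 and 3. CFD was listed at 0 in all 4 libraries. The counted annotation holds a further copy of CFD on another contig, so this 0 says nothing of its expression. Of 10 fibroblast markers, 3 passed, and they went different ways. DCN, which encodes the matrix proteoglycan decorin, had 1 and 3 counts in wild type and 94 and 87 in HSF1-pLVX and was called higher (edgeR adjusted p = 1.12e-07). Its counts, like those of ADH1B, lay at the floor in wild type. DCN passed the filter through the HSF1-pLVX libraries only, so nothing is read from its call. FAP, which made up most of the fibroblast sum, fell from 191 and 216 to 44.9 and 35.0 CPM (edgeR adjusted p = 5.08e-10), and COL1A1 was not called (log2 fold change 0.19, edgeR adjusted p = 0.353). The sum was 199 to 227 CPM in wild type against 48.9 to 59.9, and COL1A2, COL3A1, LUM and THY1 had at most 2 counts. PDGFRB had 2 and 0 counts in wild type against 10 and 5, and PDGFRA 6 and 4 against 1 and 1. The part of these marker lists in the ADH1B difference was not tested. In bulk RNA, fewer cells of a type and less RNA per cell cannot be told apart.

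ADH5 (ENSG00000197894.10, chr4:99070978-99088801, minus strand), the glutathione-dependent formaldehyde dehydrogenase found in most cells, had 2064 and 1979 counts in wild type and 4623 and 3926 in HSF1-pLVX. In CPM these were 110.0 and 107 against 184 and 198. Both HSF1-pLVX libraries lay above both wild-type ones, with means of 108 ± 2.43 and 191 ± 9.53 CPM (SD, n = 2) and a log2 fold change of 0.82 (SE 0.0878). ADH5 supplied 96.7% to 98.6% of the summed ADH level per kb in every library, and ADH1B reached 0.571% and 1.1% in the HSF1-pLVX libraries. In absolute terms the ADH family was therefore almost wholly ADH5 in both groups.

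Among the other ADH genes 2 of 6 could be tested and both rose, as did 32.7% of all genes tested. ADH6 had 2 and 6 counts in wild type and 27 and 19 in HSF1-pLVX (log2 fold change 2.22, edgeR adjusted p = 0.00108). It passed the filter on low counts through the HSF1-pLVX libraries only, so nothing is read from its call. ADHFE1, a mitochondrial hydroxyacid-oxoacid transhydrogenase, rose by 0.95 on the log2 scale (edgeR adjusted p = 0.0142), a call that was lost without the second HSF1-pLVX library (edgeR adjusted p = 0.113) and with DESeq2 (adjusted p = 0.103). The class I neighbours of ADH1B on chromosome 4 did not share its level, with 0, 0, 0 and 2 counts over the 4 libraries for ADH1A and 0, 0, 1 and 1 for ADH1C.

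ALDH1A3 (ENSG00000184254.16, chr15:100877714-100916626, plus strand), which makes retinoic acid from retinaldehyde, showed the opposite direction. It had 12337 and 12335 counts in wild type and 5644 and 3952 in HSF1-pLVX, or 657 and 664 against 225 and 199 CPM. The wild-type libraries lay close together and 3.12-fold above HSF1-pLVX (log2 fold change -1.64, SE 0.0994). Its mean went from 114 ± 0.817 to 36.7 ± 3.17 CPM per kb (SD, n = 2). In wild type ALDH1A3 made up 53.8% and 56.9% of the summed level per kb of 19 ALDH genes, and in HSF1-pLVX 24.2% and 21.3%. The ALDH sum was 207 ± 6.9 CPM per kb in wild type and 162 ± 0.741 in HSF1-pLVX.

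Of the counted bases of ALDH1A3, 28.6% overlap other counted genes, chiefly the antisense ALDH1A3-AS1, and the strand setting of the counting is not given in the sources used here. ALDH1A3-AS1 had 342 and 463 counts in wild type and 466 and 296 in HSF1-pLVX, far fewer than ALDH1A3 itself. Its libraries overlapped, and it was called lower (log2 fold change -0.36, edgeR adjusted p = 0.0434). These totals do not show how reads in the shared bases were assigned, which was not tested. Most tested markers of luminal breast cells fell, as ALDH1A3 did. Of 10 luminal markers 7 were tested, 6 fell (85.7%) and 1 rose (14.3%), against 33.2% and 32.7% of all genes tested. The riser was ESR1, with 59 and 48 counts in wild type and 263 and 148 in HSF1-pLVX. The sums were 5070 and 5173 CPM in wild type and 1042 and 843 in HSF1-pLVX, and PGR had 0 counts throughout. Most of these sums was KRT8 (3158 and 3173 against 383 and 288 CPM) and KRT18 (1602 and 1675 against 530 and 454). The basal markers split, with 5 of 10 higher and 4 lower and sums of 22090 to 23180 against 13230 to 13900 CPM. The part of either marker list in the ALDH1A3 difference was not tested.

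ALDH1A1 (ENSG00000165092.12, chr9:72900662-73080442, minus strand), the cytosolic retinaldehyde dehydrogenase, was at the floor in every library, with 0 and 1 counts in wild type and 1 and 2 in HSF1-pLVX. No fold can be given. ALDH2, the mitochondrial enzyme that clears acetaldehyde, was likewise near 0, with 0 and 1 against 3 and 4 counts. ALDH1A2 had 18 and 6 against 4 and 6 counts. Among ALDH1A1, ALDH1A2 and ALDH1A3, only ALDH1A3 thus had measurable RNA at more than trace level in these cells.

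ALDH3A1 (ENSG00000108602.17, chr17:19737984-19748943, minus strand), an enzyme abundant in cornea that oxidises aromatic and medium-chain aldehydes, had 315 and 232 counts in wild type and 661 and 630 in HSF1-pLVX. The levels were 16.8 and 12.5 against 26.3 and 31.7 CPM. The groups did not overlap, though replicates of each group spread widely, and the log2 fold change was 0.98 (SE 0.137). ALDH3A2 (ENSG00000072210.18, chr17:19648136-19677598, plus strand), the fatty aldehyde dehydrogenase that is deficient in Sjögren-Larsson syndrome, lies next to it on chromosome 17. It had 1726 and 1428 against 3617 and 3045 counts, or 92.0 and 76.9 against 144 and 153 CPM. Both HSF1-pLVX libraries were higher, with a log2 fold change of 0.82 (SE 0.0982). Counts of ALDH3A2 were 5.48 and 6.16 times those of ALDH3A1 in wild type and 5.47 and 4.83 times in HSF1-pLVX, and both genes were higher in HSF1-pLVX. As a share of the ALDH family, ALDH3A2 was 5.89% to 6.72% in wild type and 13.9% to 14.6% in HSF1-pLVX.

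Of the 22 other ADH, ALDH and AKR genes tested, 10 rose (45.5%) and 2 fell (9.09%), with a median log2 fold change of 0.35 against 0.02 over all genes. Of the 10, ADH6 and ALDH1L1 passed the filter on low counts through the HSF1-pLVX libraries only. In the ALDH family 5 of 13 rose (38.5%) and 2 fell (15.4%). Of all genes tested, 32.7% rose and 33.2% fell. ALDH7A1, which acts in lysine breakdown and betaine synthesis, rose from 57.4 ± 3.64 to 244 ± 19.2 CPM (SD, n = 2; edgeR adjusted p = 2.78e-10). ALDH1L2, a mitochondrial folate enzyme, rose from 27.7 to 97.4 CPM (edgeR adjusted p = 6.11e-10). Its cytosolic counterpart ALDH1L1 rose from 7 and 5 counts to 45 and 41 (edgeR adjusted p = 3.44e-05). ALDH3B1 (log2 fold change 0.51, edgeR adjusted p = 0.00391) and ALDH18A1 of proline synthesis (0.35, edgeR adjusted p = 0.0026) rose less, and both calls were lost without the second HSF1-pLVX library (edgeR adjusted p = 0.184 and 0.0543). The ALDH3B1 call was also lost without the second wild-type library (edgeR adjusted p = 0.068). The mitochondrial enzymes ALDH1B1 and ALDH4A1, the latter of proline breakdown, fell by 0.54 and 0.66 on the log2 scale (edgeR adjusted p = 0.000161 and 0.00164).

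**Figure D2:**
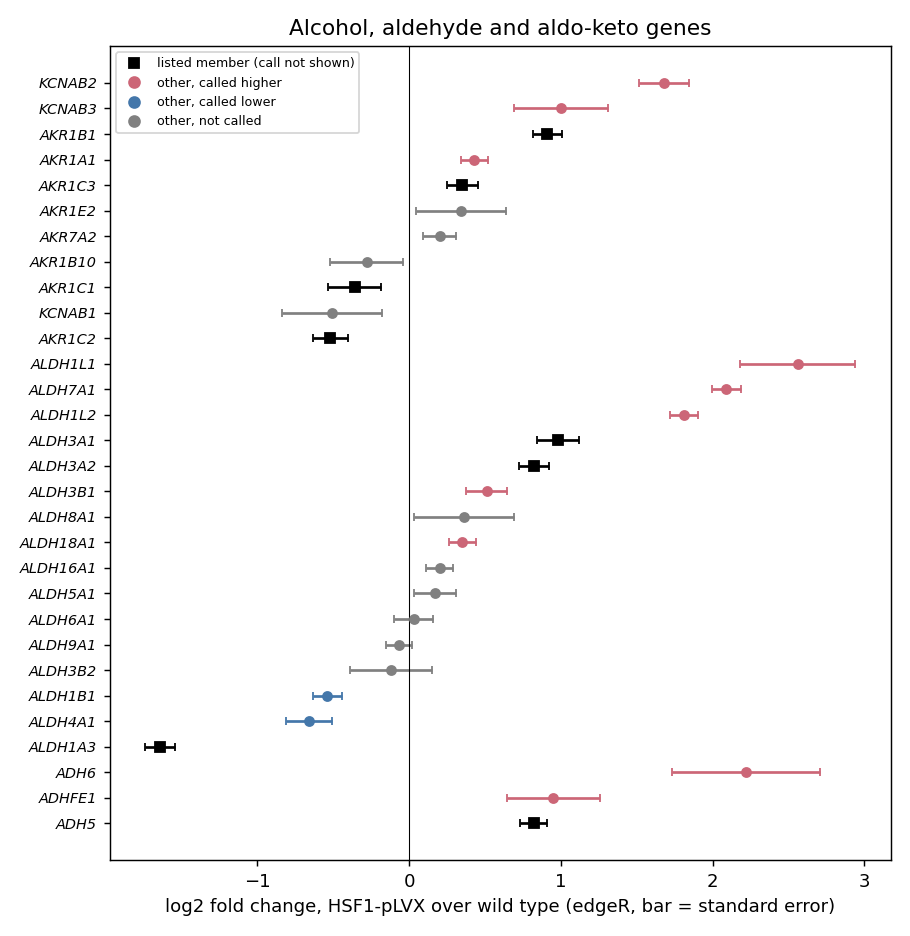
Fitted log2 fold change of HSF1-pLVX over wild type for the tested ADH, ALDH and AKR genes, with bars for the standard error, black squares for the listed genes (calls not shown) and coloured circles for the others by call. ALDH1A3 has the lowest value, -1.64, and ALDH1L1 the highest, 2.56. ADH1B is not drawn because it had 0 counts in wild type.

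**Figure D3:**
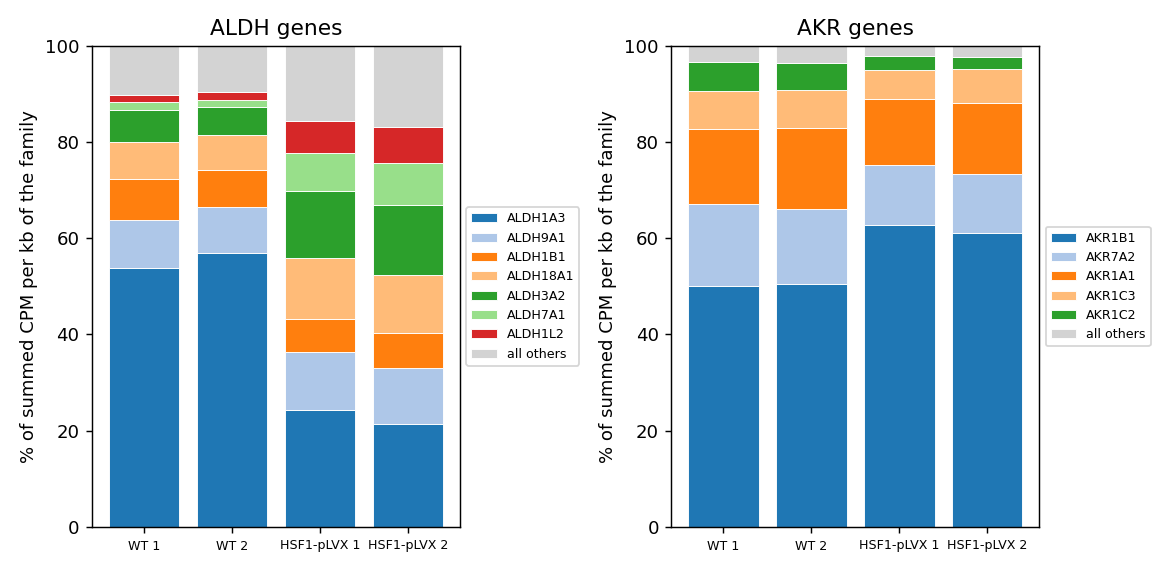
Share of the summed CPM per kb of the ALDH genes (left) and AKR genes (right) by library, in percent, with genes under 5% in every library pooled as all others. ALDH1A3 takes 53.8% and 56.9% of the ALDH level in wild type and 24.2% and 21.3% in HSF1-pLVX, and AKR1B1 takes 50.1% and 50.5% of the AKR level in wild type and 62.8% and 61.1% in HSF1-pLVX.

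AKR1B1 (ENSG00000085662.13, chr7:134442350-134459284, minus strand), the aldose reductase that turns glucose into sorbitol, had 3947 and 3411 counts in wild type and 9282 and 7337 in HSF1-pLVX. The levels were 210.3 and 184 against 369.7 and 369.3 CPM. The HSF1-pLVX libraries were nearly equal and 1.88-fold above wild type (log2 fold change 0.91, SE 0.0962). Per kb it went from 53.8 ± 5.16 to 101.0 ± 0.0776 CPM (SD, n = 2) and became the most abundant of the listed genes. It supplied 50.1% and 50.5% of the summed level of 13 AKR genes in wild type and 62.8% and 61.1% in HSF1-pLVX.

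The 3 AKR1C genes lie beside each other on chromosome 10 and differed in direction. AKR1C1 (ENSG00000187134.13, chr10:4963253-4983283, plus strand), which inactivates progesterone, had 212 and 145 counts in wild type and 185 and 149 in HSF1-pLVX, or 11.3 and 7.80 against 7.37 and 7.50 CPM. The second wild-type library lay almost at the HSF1-pLVX level, and the log2 fold change was -0.36 (SE 0.173). AKR1C2 (ENSG00000151632.17, chr10:4987400-5018031, minus strand), which inactivates dihydrotestosterone, had 847 and 651 against 732 and 532 counts, or 45.1 and 35.0 against 29.2 and 26.8 CPM. Both HSF1-pLVX libraries were lower, with a log2 fold change of -0.52 (SE 0.115). AKR1C3 (ENSG00000196139.13, chr10:5035354-5107686, plus strand), which makes testosterone from androstenedione and reduces prostaglandins, had 769 and 663 against 1129 and 1052 counts, or 41.0 and 35.7 against 45.0 and 53.0 CPM. Both HSF1-pLVX libraries were higher, the first only slightly, with a log2 fold change of 0.35 (SE 0.103).

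Within the cluster AKR1C3 had a larger part in HSF1-pLVX. Its counts were 0.908 and 1.02 times those of AKR1C2 in wild type and 1.54 and 1.98 times in HSF1-pLVX. The ratio of AKR1C2 to AKR1C1 counts stayed between 3.57 and 4.49 in all 4 libraries. AKR1C1 and AKR1C2 share much of their transcript sequence. Of all 76-base windows, the read length, 16.9% of those of AKR1C1 and 32.2% of those of AKR1C2 occur in another gene's transcripts, mostly each other's, against 3.5% for AKR1C3. The division of reads between AKR1C1 and AKR1C2 is therefore uncertain. Counted as 1 pair they gave 56.4 and 42.8 CPM in wild type and 36.5 and 34.3 in HSF1-pLVX, which did not overlap. With AKR1C1 to AKR1C4 summed, the libraries overlapped (97.4 and 78.6 against 81.6 and 87.2 CPM) and the log2 fold change was -0.06 (SE 0.102).

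The promoters of the cluster are related in the same way. Over the 250 bases upstream, AKR1C1 and AKR1C2 were 96.5% identical, while AKR1C3 was 71.4% identical to AKR1C1 and 69.6% to AKR1C2. The following 30-base stretches are shown because motif matches present in AKR1C1 and AKR1C2 are absent from the aligned letters of AKR1C3. In the first set capitals mark the heat shock pair GAANNTTC (AKR1C1 chr10:4963239-4963268, plus strand; AKR1C2 chr10:5004008-5004037, minus strand; AKR1C3 chr10:5048609-5048638, plus strand).
AKR1C1: aatttacttatGAATTTTCttaggtaagaa
AKR1C2: aatttacttatGAATTTTCttaggtaagaa
AKR1C3: gctttacttaagaattttattagagaagaa
In the second set capitals mark the antioxidant core, again on the opposite strand (AKR1C1 chr10:4963364-4963393, AKR1C2 chr10:5003883-5003912, AKR1C3 chr10:5048733-5048762, strands as before).
AKR1C1: caggggcgttGCCAGCTCAttgctcttata
AKR1C2: caggggcgttGCCAGCTCAttgctcttata
AKR1C3: agagggcattgcctccattgattttataac
AKR1C1 and AKR1C2, which hold both matches, had lower mean CPM in HSF1-pLVX, and AKR1C3 had a higher one. Any link between these letters and the levels was not tested.

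Of the other AKR genes tested 3 of 7 rose (42.9%) and 0 fell, against 32.7% and 33.2% of all genes tested. AKR1A1, the aldehyde reductase, rose by 0.43 on the log2 scale (edgeR adjusted p = 0.000729). KCNAB2, a potassium channel beta subunit of the AKR fold, rose by 1.68 (edgeR adjusted p = 6.45e-07). KCNAB3 rose by 1.0 (edgeR adjusted p = 0.0112) and lost its call without the second HSF1-pLVX library (edgeR adjusted p = 0.133), without the second wild-type library (0.0652) and with DESeq2 (0.0757). AKR1B10, a close relative of AKR1B1 that reduces retinaldehyde and is a known NRF2 target, had 59 and 50 counts in wild type and 61 and 47 in HSF1-pLVX, and its log2 fold change of -0.28 was not called (edgeR adjusted p = 0.321).

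Ordered by level per kb, the listed genes ran ALDH1A3, AKR1B1, ADH5, ALDH3A2, AKR1C3, AKR1C2, ALDH3A1 and AKR1C1 in wild type, with the libraries of each neighbouring pair apart. ALDH1A1 and ADH1B followed and did not differ beyond their spread. In HSF1-pLVX the order was AKR1B1, ADH5, ALDH1A3, ALDH3A2, AKR1C3, ALDH3A1, AKR1C2, AKR1C1, ADH1B and ALDH1A1. There ADH5 (39.2 ± 1.96 CPM per kb, SD, n = 2) and ALDH1A3 (36.7 ± 3.17) overlapped. The order depends on the exon bases counted. By mean CPM, AKR1C2 (40.1) stood above AKR1C3 (38.3) in wild type, and ALDH1A3 (212) above ADH5 (191) in HSF1-pLVX. The first place in the order passed from ALDH1A3 to AKR1B1. ALDH1A3 stood at 1.98 and 2.29 times AKR1B1 per kb in wild type and at 0.386 and 0.342 times in HSF1-pLVX.

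The pathways these enzymes serve were read from lists of related genes. Around ALDH1A3, 17 of 26 retinoid genes were tested, of which 8 rose and 3 fell, with a median log2 fold change of 0.49. The shares were 47.1% and 17.6%, against 32.7% and 33.2% of all genes tested. DHRS9, a retinol dehydrogenase, rose by 2.57 on the log2 scale from 7 and 17 counts to 107 and 68 (edgeR adjusted p = 1.46e-05). CYP26B1, which degrades retinoic acid, rose by 2.16 (edgeR adjusted p = 2.59e-07), and FABP5, a carrier of retinoic acid to the nucleus, by 2.01 (edgeR adjusted p = 3.58e-08). CRABP2 and RDH11 fell by 0.45 and 0.43 (edgeR adjusted p = 0.00464 and 0.00164), and neither was called without the second HSF1-pLVX library (0.0988 and 0.114). DHRS3, which returns retinaldehyde to retinol and was chosen after its values were seen, rose from 130 ± 8.90 to 433 ± 23.4 CPM (SD, n = 2; edgeR adjusted p = 1.56e-09).

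For AKR1B1, 8 of 9 polyol and fructose genes were tested, of which 4 rose and 1 fell. For comparison, 32.7% of all genes tested rose and 33.2% fell, and 65.9% were called either way. SLC5A3, the myo-inositol transporter, rose by 1.40 on the log2 scale (edgeR adjusted p = 3.28e-07). TKFC, which phosphorylates dihydroxyacetone and glyceraldehyde, rose by 1.19 (edgeR adjusted p = 6.01e-08), and the aldolase ALDOC by 0.95 (edgeR adjusted p = 0.00011). SORD, which converts sorbitol to fructose and was the remaining riser, rose by 0.69 (edgeR adjusted p = 3.68e-05). The single fall was SLC2A5, a fructose transporter with only 29 and 19 counts in wild type and 15 and 7 in HSF1-pLVX (edgeR adjusted p = 0.00647). Its call was lost without the first wild-type library (edgeR adjusted p = 0.0934), without the second HSF1-pLVX library (0.119) and with DESeq2 (0.0628). SORD and SLC2A5 were named after their values were seen.

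Beside the AKR1C genes, 24 of 31 steroid and prostaglandin genes were tested, of which 8 rose and 4 fell, with a median log2 fold change of 0.08. The shares were 33.3% and 16.7%, against 32.7% and 33.2% of all genes tested. SULT1E1, the oestrogen sulfotransferase, rose by 5.30 on the log2 scale from 9 and 6 counts to 366 and 351 (edgeR adjusted p = 2.6e-10). It passed the filter on low counts through the HSF1-pLVX libraries only, so nothing is read from its call. HSD11B2, which inactivates cortisol, rose by 1.73 (edgeR adjusted p = 7.71e-05). The cyclooxygenases went opposite ways, PTGS1 rising by 3.11 (edgeR adjusted p = 5.07e-09) and the inducible PTGS2 falling by 2.26 from 324 ± 27.5 to 67.2 ± 20.7 CPM (SD, n = 2; edgeR adjusted p = 1.32e-08). SULT2B1, a cholesterol sulfotransferase, fell by 3.19 (edgeR adjusted p = 1.45e-07), and PTGR1 by 0.29 (edgeR adjusted p = 0.0066), the latter not called without the first (0.0673) or the second (0.0593) HSF1-pLVX library. HSD3B1, named after its values were seen, had 47 and 40 counts in wild type and 0 in both HSF1-pLVX libraries, at least 17.2-fold lower. It passed the filter through the wild-type libraries only.

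Several members of these families are targets of NRF2 or of the aryl hydrocarbon receptor (AHR). Of 22 NRF2-related genes tested, 6 rose (27.3%) and 10 fell (45.5%), with a median log2 fold change of -0.28. Of all genes tested, 32.7% rose and 33.2% fell. HMOX1, haem oxygenase, fell by 3.12 on the log2 scale (edgeR adjusted p = 1.56e-08), OSGIN1 by 1.57 (edgeR adjusted p = 1.12e-06) and ME1, malic enzyme, by 1.22 (edgeR adjusted p = 8.95e-08). TKT of the pentose phosphate pathway rose by 2.18 (edgeR adjusted p = 7.19e-10), the cystine transporter SLC7A11 by 1.31 (edgeR adjusted p = 8.34e-08) and glutathione reductase GSR by 1.11 (edgeR adjusted p = 4.36e-08). On the AHR list 25.0% of the genes tested rose and 12.5% fell. Of its 8 genes, CYP1B1 rose by 0.28 (edgeR adjusted p = 0.0374), NFE2L2, which encodes NRF2, by 0.55 (edgeR adjusted p = 4.44e-05), and TIPARP fell by 0.38 (edgeR adjusted p = 0.00109). The CYP1B1 call held with the first wild-type library left out and was lost with any other library left out (edgeR adjusted p = 0.154 to 0.373), and that of TIPARP was lost without the second HSF1-pLVX library (0.0514). AHR itself had a log2 fold change of -0.04 and was not called (edgeR adjusted p = 0.751).

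**Figure D4:**
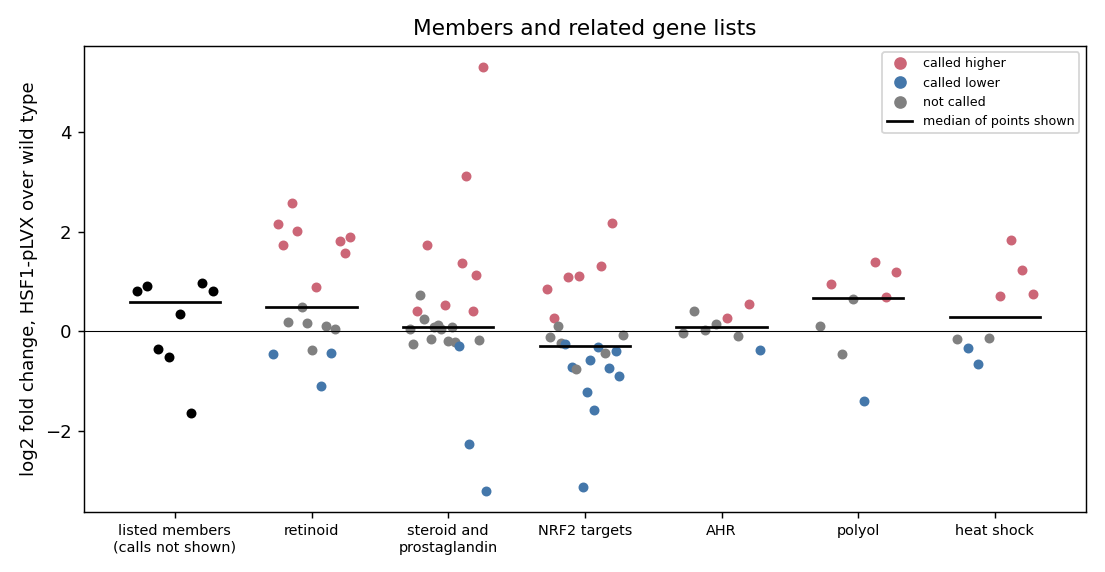
Fitted log2 fold change of HSF1-pLVX over wild type for each tested gene of the listed enzymes and of the related lists, with points coloured by call and a line at the median of the points shown. The retinoid list has 8 genes called higher and 3 lower and the NRF2 list 6 higher and 10 lower, and ADH1B and HSD3B1, each at 0 counts in a whole group, are not drawn. Of all genes tested, 32.7% were called higher and 33.2% lower.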

How the data were processed

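Paired-end reads (76 bases) of ribosome-depleted total RNA were aligned to hg38 with HISAT2 2.0.5, processed with SAMtools 1.13 and counted per gene with featureCounts 1.6.5 by the authors, who deposited raw counts for 63856 GENCODE genes in 4 libraries. The authors also deposited DESeq2-normalised values on a log2-like scale, used here only as an alternative. Strand and multi-mapping settings are not given in the sources used here.

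Counts were filtered by expression and fitted with edgeR 4.0.16 (TMM factors 0.9635 to 1.0398, quasi-likelihood test, Benjamini-Hochberg adjustment over 15830 genes, threshold 0.05) in R 4.3.3, without a replicate block. The fit was tested on simulated data. CPM per kb divides by the exon bases counted. Symbols were matched for 57437 genes. Promoters came from RefSeq GRCh38.p14 (250 bases upstream). The same-numbered libraries did not deviate together. The paper judged signal ratios replicate by replicate, but no label says that a replicate number marks a shared culture or day. Libraries of a group differed beyond sampling noise, and each counts as a replicate. The paper calls them biological replicates, but no label says that they were separate cultures. The p-values therefore measure the spread between these samples. The members and lists were chosen with earlier results of these data known. From each related list, up to 3 called genes with the largest rise and 3 with the largest fall were named, if both libraries of the group with the higher level held 50 counts or more. An exact permutation test of 2 against 2 cannot go below p = 0.33, so none was used. Alternatives were other scalings, no filter, DESeq2 1.42.0, the block, each library left out, a 2-fold limit and summed AKR1C counts. Shares within the AKR family leave out the KCNAB channel subunits. A called gene of the retinoid list is not reported here.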

Additional observations from a re-analysis of the deposited data

How the results depend on the processing

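Directions of the 8 listed genes other than ADH1B and ALDH1A1 held under other scalings, no filter, DESeq2, the block and each library left out. Summing AKR1C1 to AKR1C4 gave 1 joint value of -0.06. It mixes genes of different direction and is no estimate for AKR1C3 alone, whose value was 0.35. Leaving out 1 library gave log2 fold changes of -0.62 to -0.06 for AKR1C1, -0.71 to -0.31 for AKR1C2 and 0.24 to 0.47 for AKR1C3. For ADH1B the difference was 3.32 in the deposited normalised values and the DESeq2 estimate 8.53, neither a measured fold. Of 164 counts recomputed, 13 moved by over 1.5 times. Genes of the AHR list called higher were 1, not 2, without the filter and with DESeq2, and 1 to 2 with a library left out, while those called lower were 0 to 1. Polyol genes called lower were 0 with DESeq2 and 0 to 1 with a library left out, retinoid genes called lower 1 to 4, and heat shock genes called lower 1 to 2. For the other ADH, ALDH and AKR genes, a 2-fold limit left 5 called higher and 0 lower, in place of 10 and 2. The cause was not tested, beyond the stricter limit itself and the fewer samples.

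With the replicate block, 5138 genes were called higher and 5171 lower, against 5175 and 5253 without it, and of the other ADH, ALDH and AKR genes 10 and 2, as without it. The deviations of same-numbered libraries correlated at -0.015, and at -0.114 above 8 CPM. The crossed pairing, added after seeing the data, called 5429 genes higher and 5487 lower. At this depth ALDH1A1 could not be told from 0 in any library.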

Other observations

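The heat shock genes, the classical targets of HSF1, were read beside the enzymes. Of 10 listed, 8 were tested, of which 4 rose and 2 fell, with a median log2 fold change of 0.29 against 0.02 over all genes. For comparison, 32.7% of all genes tested rose and 33.2% fell, and 65.9% were called either way. HSPA8 and BAG3 were tested and not called (log2 fold change -0.13 and -0.15, edgeR adjusted p = 0.31 and 0.145). The mitochondrial chaperonin genes HSPD1 and HSPE1 rose by 1.84 and 1.23 on the log2 scale (edgeR adjusted p = 6.97e-10 and 5.06e-08), and HSPH1 by 0.75 (edgeR adjusted p = 3.98e-06). HSPB1, named after its values were seen, rose by 0.71 (edgeR adjusted p = 1.77e-05). HSP90AA1 fell by 0.65 (edgeR adjusted p = 6.97e-05) and DNAJB1 by 0.34 (edgeR adjusted p = 0.00447), the latter not called without the second HSF1-pLVX library (0.0734). HSPA1A and HSPA1B were listed at 0 in all 4 libraries, and the counted annotation holds further copies of both on alternate contigs, so this 0 says nothing of their expression.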
